A study of Mus musculus with 8 samples.

Results

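Semaphorins, ephrins, Slits and netrins are the classical axon guidance cues, and the genes for these ligands and their receptors were followed here in mesenchyme of the embryonic mouse lung. The members are all genes whose symbol in the platform annotation falls in the semaphorin classes 3 to 7, the plexins, the neuropilins, the A and B ephrins, the receptors Epha1 to Epha8 and the EphB receptors, the Slits, Robo1 to Robo3, Ntn1 and Ntn4. They number 59 genes on 138 probe sets, of 18193 genes with a probe set of their own. After the filter on low signal 56 of the 59 were tested, among 16115 genes in all.

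The tissue was mesenchyme, the loose connective layer that wraps the airway, taken from lungs of CD1 mouse embryos at e11.5 to e12.5 (embryonic days). Tip (around the growing branch ends) and stalk (around the airway behind them) were profiled without culture, on 2 arrays each. Stalk mesenchyme was also cultured on plastic for 12 h, in control medium or with 400 ng/ml Wnt1, a secreted signalling protein, again with 2 arrays each. No genetic change is named for any group. Whether the 2 replicates of a group are separate litters is not in the labels, and the p-values therefore cover the spread of these arrays, which may be a technical one. The pieces are whole mesenchyme and hold several cell types, so fewer cells of a type and less RNA per cell cannot be told apart in any value below.

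The values are MAS5 signals, 1 linear intensity per probe set and array, and a gene is represented by its brightest probe set. Signals of different genes come from different probes and are not set against each other. Every array was scaled by the authors to a trimmed mean near 500, but the array medians were 76.5 to 99.8 without culture and 149 to 299 in culture. For Actb the signal at the 3' end over that at the 5' end, which grows as RNA is degraded or labelled short, was 2.02 to 4.52 without culture and 6.81 to 24.4 in culture. The highest array median, 299, is used below as a signal floor, a level under which a value may be background. Of 10 markers of lung mesenchyme, 8 exceeded it on both arrays of tip and on both of stalk.

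As background, class 3 semaphorins are secreted and act through neuropilins, which bind them, and plexins, which carry the signal into the cell. Ephrins are anchored to the membrane, and their Eph receptors are tyrosine kinases, so this signalling passes between touching cells and sorts them into territories. Slits are secreted ligands of Robo receptors and netrins are laminin-related cues. In the embryonic lung these families are known for roles in branching and vessel growth.

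In freshly dissected tissue 23 of 56 members lay above the signal floor on both tip arrays and 28 on both stalk arrays. In control culture the number was 26 and with Wnt1 it was 19. On single arrays 36 and 35 members exceeded the floor in control culture and 35 and 21 with Wnt1, so the low number with Wnt1 rests on replicate 2. That array had the lowest median of the culture arrays (149, the others 209 to 299) and the lowest Actb ratio among them (6.81, the others 21.2 to 24.4). Only 14 members exceeded the floor on all 8 arrays, and 5 exceeded it on none. The 14 were the secreted ligands Sema3a, Sema3c and Sema3d, the co-receptor Nrp1, the plexins Plxna1, Plxna3, Plxnb1 and Plxnb2, the ligands Efna2, Efna5, Efnb1, Efnb2 and Efnb3, and the receptor Ephb3. None of these 14 passed the test in any of the 4 comparisons described below. Sema3a, a repellent of axons and endothelial cells, was level without culture, with 1560 and 1521 in tip and 1589 and 1574 in stalk. In culture it was at 1329 and 2678 in control medium and at 1523 and 1252 with Wnt1. Only control culture replicate 2 stood apart. Dimmer probe sets of Sema3a differed by -1.77 and 0.30 on the log2 scale between Wnt1 and control culture. Others of the 14 shifted more without passing, such as Efna5 (-1.10, Wnt1 culture against stalk) and Plxnb1 (0.82, control culture against stalk).

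The clearest change with culture was in EphA receptors and an ephrin-A ligand. Epha3 and Epha7, receptors for A-type ephrins, fell in stalk kept in control medium, and Efna3, an A-type ephrin, rose. These 3 genes kept their calls in both culture media when dim values were raised to the floor, after quantile normalization and after centring each array on its median. Other alternatives ended some of the calls. That of Efna3 was lost in both media without either stalk array. Those of Epha3 in control culture and Epha7 with Wnt1 were lost with the mean of all probe sets. For these 3 genes the sequence just before the RefSeq transcription start is shown, because they carry this result. It comes from the first promoter that the RefSeq table of build GRCm38.p6 lists for the gene. Each line gives 250 bases from 5′ to 3′ on the strand of the gene, at chr16:63864176-63864425 (minus strand) for Epha3, chr4:28812881-28813130 (plus) for Epha7 and chr3:89322940-89323189 (minus) for Efna3. Capitals mark a match to 1 of the 4 motifs named after the sequences.
Epha3: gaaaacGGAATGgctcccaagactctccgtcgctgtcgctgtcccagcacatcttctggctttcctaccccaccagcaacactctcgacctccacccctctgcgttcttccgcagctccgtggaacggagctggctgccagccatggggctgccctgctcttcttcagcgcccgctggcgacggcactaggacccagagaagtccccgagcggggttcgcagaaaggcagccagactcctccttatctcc
Epha7: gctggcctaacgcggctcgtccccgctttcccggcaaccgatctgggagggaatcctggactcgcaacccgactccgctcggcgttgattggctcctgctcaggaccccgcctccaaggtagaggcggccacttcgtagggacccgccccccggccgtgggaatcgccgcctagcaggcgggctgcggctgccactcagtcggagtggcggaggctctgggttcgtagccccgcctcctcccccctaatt
Efna3: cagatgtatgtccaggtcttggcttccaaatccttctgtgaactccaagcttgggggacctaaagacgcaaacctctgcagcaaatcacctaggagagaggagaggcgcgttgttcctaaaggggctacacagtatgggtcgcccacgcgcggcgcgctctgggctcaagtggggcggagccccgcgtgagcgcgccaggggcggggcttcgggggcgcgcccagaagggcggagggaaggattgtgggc

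All 3 are rich in G and C, at 62.8% for Epha3, 69.2% for Epha7 and 63.6% for Efna3, where the median over the 32851 promoters of the table is 52.4%. They hold 16, 25 and 19 CG pairs. The motifs searched were GGAATG (TEAD factors), CTTTGA (TCF/LEF factors), TGANTCA (AP-1) and ACGTG (the core of the hypoxia element), on both strands, and none of them contains another. In windows that also take in the 50 bases after the start, they occur in 14.7%, 16.0%, 7.81% and 19.6% of all promoters. Epha3 holds 1 GGAATG, and no match lies in the windows of Epha7 and Efna3. Of the 18 members that passed the test in either culture medium, 16 have a promoter in the table. Counting the first listed promoter of each, 3 hold GGAATG, 2 CTTTGA, 2 TGANTCA and 3 ACGTG. These are matches of letters only and say nothing about binding.

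Culture in control medium was compared with uncultured stalk to ask how the tissue differs after 12 h on plastic. Among the 56 members 8 rose and 7 fell (limma on log2 signal, Benjamini-Hochberg adjusted p under 0.05 over all 16115 genes). That is 14.3% and 12.5% of members, where 17.1% of all genes tested rose and 9.26% fell, so neither share lies far from the background. The median log2 fold change of the members was 0.40 and that of all genes 0.45. The culture arrays had the higher medians, and with each array centred on its median the shift of all genes was -0.02 and that of the members -0.06. The members then split into 5 higher and 7 lower (9.31% and 12.9% of all genes). With values under the floor raised to it 2 rose and 3 fell (1.84% and 2.68% of all genes), and after quantile normalization 2 and 4 (3.55% and 4.43%). The arrays of stalk and control culture did not overlap in 27 members that were higher in culture (46.1% of all genes) and 14 that were lower (25.4%). Together these are 73.2% of members and 71.5% of all genes.

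Those counts rest on few arrays. Without either stalk array or control culture replicate 1 most of these calls were lost, and so were most calls over all genes. Without a tip array, which adds only to the shared spread, fewer members and fewer of all genes passed. Without either Wnt1 culture array more of both passed. Each of these refits leaves 1 array in a group, so median log2 fold changes are given in place of counts. Without stalk replicate 1 they were 0.57 for members and 0.47 for all genes, and without stalk replicate 2 0.38 and 0.41. Without control culture replicate 1 they were 0.59 and 0.39, and without its replicate 2 0.32 and 0.41.

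**Figure D1:**
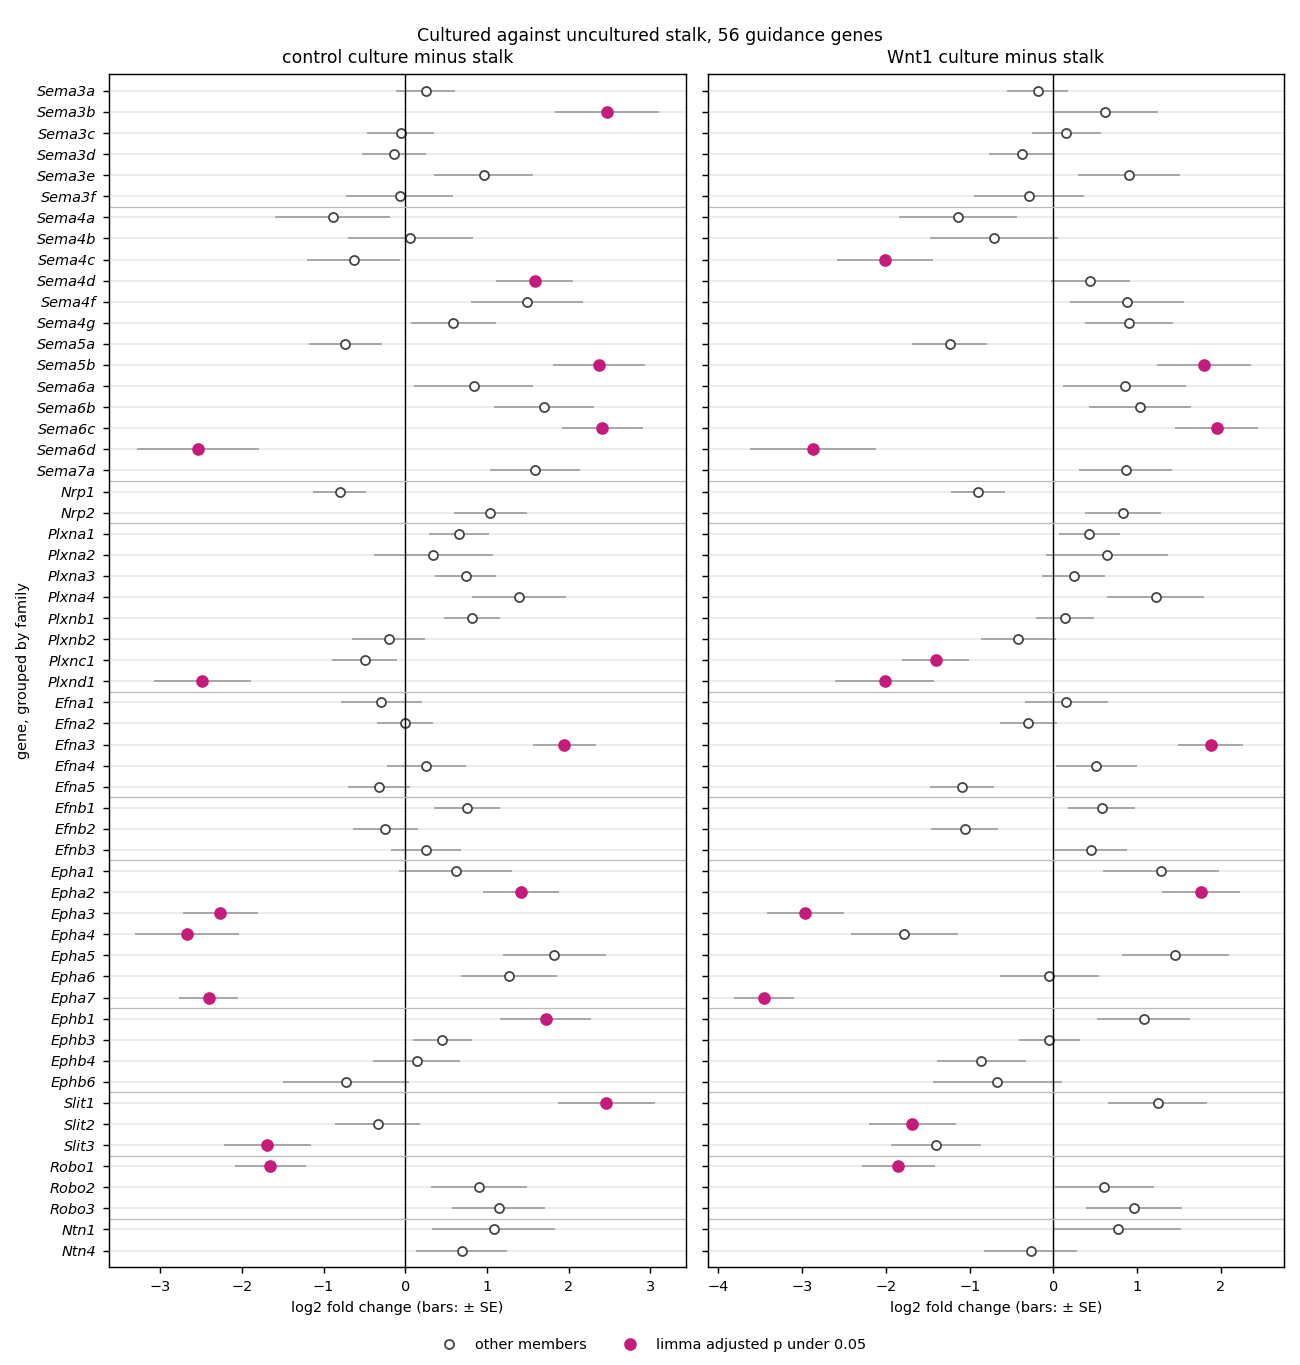
Log2 fold change (horizontal axis, bars ± SE from the limma fit) of the 56 tested guidance genes, grouped by family, for control culture minus stalk (left) and Wnt1 culture minus stalk (right); filled points passed an adjusted p of 0.05. On the left 8 genes passed above 0 and 7 below, on the right 4 above and 8 below, and the same stalk arrays serve both panels.

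Among Eph receptors, Epha7 was at 2687 and 3179 in the stalk arrays and at 423 and 622 in control culture. Every culture value lay far under every stalk value, and the log2 fold change was -2.41 ± 0.36 (SE; limma, adjusted p = 0.0042). This call was lost only without stalk replicate 2 (log2 fold change -2.67 to -2.15 over the 8 fits with an array left out). Epha3 went from 2350 and 2979 to 531 and 498, again without overlap, with a change of -2.27 ± 0.46 (adjusted p = 0.0097). A second probe set of Epha3 changed by -1.76, while the remaining one that passed the filter stayed under the floor on every array and was at 0.54. The call of Epha3 was lost without either stalk array and with the mean of all probe sets, where the change was -1.16. For Epha7 the 3 other probe sets that passed the filter had values of -1.05 to -0.07.

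Epha4, which binds ephrins of both classes, was at 1940 and 567 in stalk and at 83.9 and 188 in control culture (-2.67 ± 0.64, adjusted p = 0.016). Its replicates lay far apart, in tip too (1585 and 683), but no culture value reached a stalk value. The other probe sets of Epha4 spanned -1.64 to 0.37, and without _x_at and _s_at probe sets the change was -0.10 and the call was lost. It was also lost without either stalk array or control culture replicate 1 (-3.52 to -1.82 over the arrays left out). Epha2, a receptor of epithelia and endothelia, rose from 223 and 228 to 576 and 790 (1.42 ± 0.47, adjusted p = 0.042). Ephb1, a receptor of B-type ephrins, rose from 192 and 58.1 to 448 and 488 (1.72 ± 0.56, adjusted p = 0.040). Both genes lay under the floor in stalk. Both calls were lost when any 1 tip, stalk or control culture array was left out, with values of 1.20 to 1.63 for Epha2 and 1.12 to 2.32 for Ephb1. The remaining Eph receptors did not pass, with changes from -0.73 for Ephb6 to 1.82 for Epha5, a receptor under the floor in stalk.

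Efna3 was at 166 and 190 in stalk and at 863 and 760 in control culture, all culture values above all others (1.95 ± 0.39, adjusted p = 0.0092). With the signal floor the rise was 1.32, since the stalk values are below it, and the other probe set was at 0.53. Leaving out either stalk array ended this call (1.86 to 2.03 over the arrays left out). The other ephrins did not pass: Efna1, Efna2, Efna4 and Efna5 had changes from -0.32 to 0.26, and Efnb1, Efnb2 and Efnb3 from -0.24 to 0.76. Efnb2, the B ephrin of arteries, was at 1065 and 1381 in stalk and at 799 and 1292 in control culture, so its arrays overlapped.

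In the semaphorin family the ligands moved in both directions. Sema6d, a membrane-bound ligand of plexin A receptors, fell from 1159 and 1684 to 330 and 120 (-2.54 ± 0.75, adjusted p = 0.030). However, its 3 other probe sets had changes of 0.81 to 1.60, and with the mean of all probe sets the value was 0.34. The call was lost without any stalk or control culture array (-3.13 to -1.95). Sema6c rose from 117 and 78.3 to 788 and 631 (2.41 ± 0.50, adjusted p = 0.010), and its second probe set was at 1.22. Sema5b, a guidance cue with thrombospondin repeats, rose from 57.8 and 31.2 to 599 and 278 (2.37 ± 0.56, adjusted p = 0.016). Sema4d, a ligand of plexin B1, rose from 153 and 208 to 840 and 461 (1.58 ± 0.47, adjusted p = 0.031). Sema3b, a secreted ligand of neuropilins, rose from 7.08 and 6.06 to 352 and 158 (2.47 ± 0.64, adjusted p = 0.020). In all of the semaphorins that rose the stalk values were under the floor, and in Sema3b and Sema5b so was control culture replicate 2. With the floor applied these 4 rises were 1.13, 0.45, 0.96 and 0.10 in the order given, and none of them passed. Without either stalk array or control culture replicate 1 the calls of all 4 were lost, and that of Sema4d also without either tip array. Over the arrays left out their values ran from 2.22 to 2.61 for Sema6c, 1.88 to 2.87 for Sema5b, 1.18 to 1.99 for Sema4d and 1.99 to 2.96 for Sema3b.

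Of the plexins only Plxnd1, the receptor of Sema3e on endothelial cells, passed. It fell from 1448 and 1132 in stalk to 62.5 and 479 in control culture (-2.49 ± 0.59, adjusted p = 0.016). The culture arrays lay under both stalk arrays but differed widely, and without control culture replicate 1 the value was -1.34 and the call was lost. It was lost without either stalk array too (-3.63 to -1.34 over the arrays left out). Markers of endothelium fell as well, 8 of 13 with a list median of -1.99. Their summed signal was 13541 to 15752 in stalk, 4208 to 4977 in control culture and 2137 to 3873 with Wnt1, and none was listed at 0. Their part in the fall of Plxnd1 was not tested. The neuropilins did not pass. Nrp1 was at 2464 and 2285 in stalk against 1091 and 1643 in control culture (-0.80 ± 0.32, adjusted p = 0.079), and Nrp2 at 408 and 365 against 746 and 952 (1.04 ± 0.45, adjusted p = 0.095). The 3 other probe sets of Nrp2 had values of -0.65 to 2.46.

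Within the Slit and Robo family, Robo1, a receptor of Slits, fell from 1274 and 1602 to 263 and 666 (-1.66 ± 0.43, adjusted p = 0.021). Its 2 other probe sets were at -0.04 and 0.89 and reached the floor on at most 1 array, and with the mean over probe sets the call was lost (-0.27). It was also lost without either stalk array or control culture replicate 1 (-2.26 to -1.05). Slit3 fell from 393 and 654 to 65.4 and 223 (-1.69 ± 0.54, adjusted p = 0.038), and the call was lost without any tip or stalk array or control culture replicate 1 (-2.33 to -1.05). Slit1 rose from 50.7 and 71.5 to 975 and 284 (2.46 ± 0.59, adjusted p = 0.016), with control culture replicate 1 far above replicate 2. Without that replicate 1 the value was 1.65 and not called, and without either stalk array the call was lost too (1.65 to 3.28). Slit2 and the netrins Ntn1 and Ntn4 did not pass, at -0.34 ± 0.52, 1.08 ± 0.76 and 0.69 ± 0.56.

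**Figure D2:**
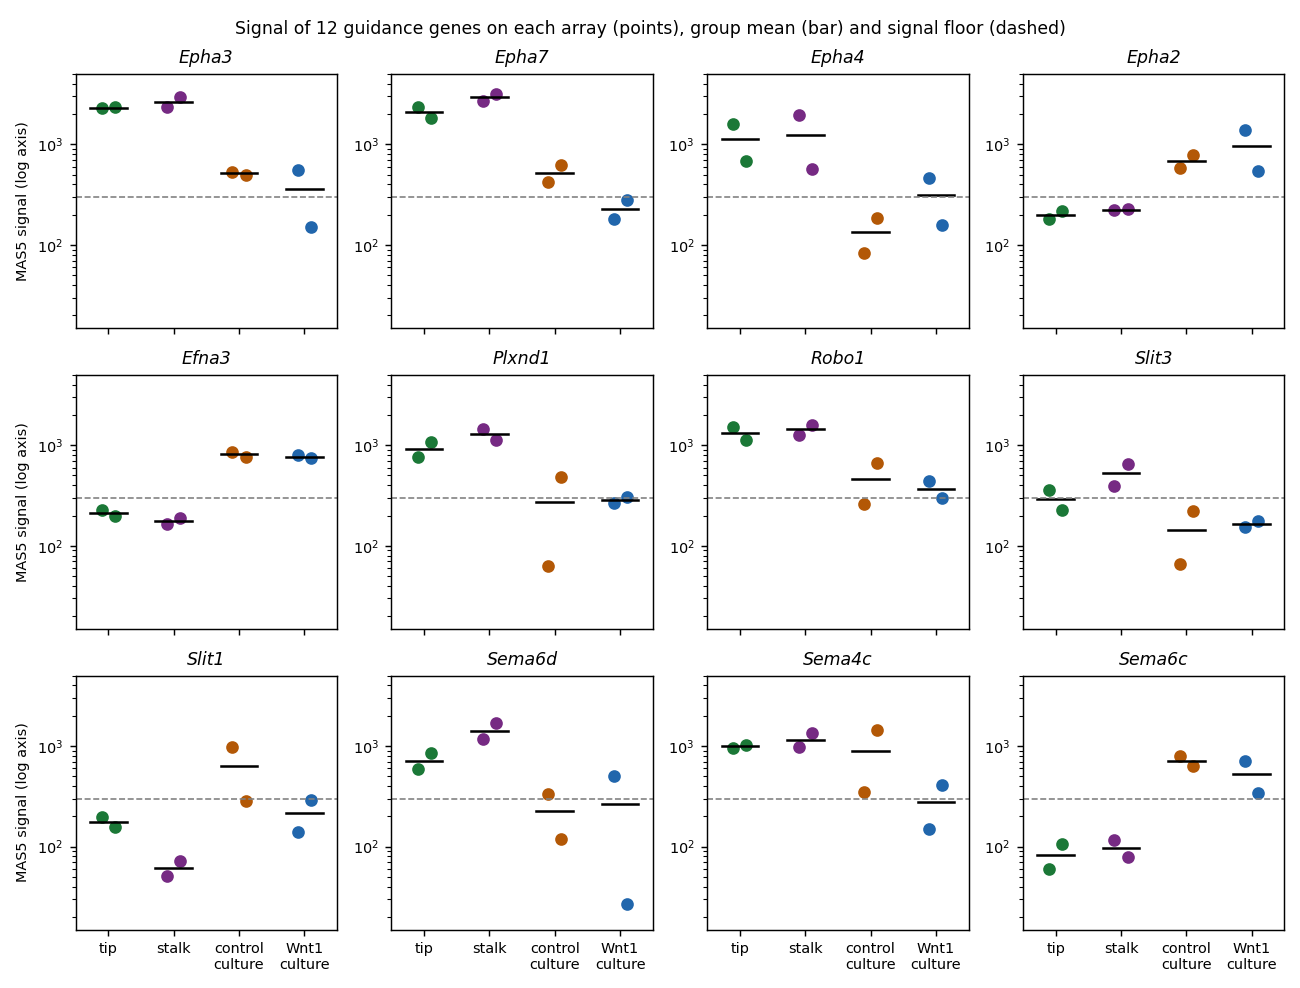
MAS5 signal (log axis) of 12 guidance genes in tip, stalk, control culture and Wnt1 culture; points are the 2 arrays of a group, bars their mean, and the dashed line is the signal floor of 299. Epha3 and Epha7 sit at 1835 to 3179 on the uncultured arrays and at 151 to 622 on the culture arrays, while Efna3 is at 166 to 228 without culture and at 749 to 863 in culture.

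Markers of other cell types moved with culture too. Those of lung mesenchyme fell in 7 of 10 and rose in 2, their summed signal being 19675 to 22516 in stalk and 7563 to 12852 in control culture. Smooth muscle markers rose in 7 of 10, with 9816 to 13086 in stalk and 141069 to 145436 in control culture. Markers of neurons and neural crest rose in 4 of 10 and fell in 1, with 1751 to 2210 against 2300 to 3340. Macrophage markers rose in 4 of 10, with 5365 to 5861 against 12563 to 28559, epithelial markers in 3 of 10, with 1881 to 2094 against 5773 to 6326, and mesothelial markers in 2 of 9, with 6136 to 6163 against 7956 to 10304. Over all genes 17.1% rose and 9.26% fell, and the mesothelial share (22.2%) lies near the former. Krt19 is on both the epithelial and the mesothelial list. Above the floor on both stalk arrays were 1 of 10 neuron and neural crest, 2 of 10 epithelial and 4 of 10 smooth muscle markers. The number was 6 of 10 for macrophages and 5 of 9 for mesothelium, and rises of the others may start from background. No marker of these lists was at 0 on any array, and the part of these shifts in the values of the guidance genes was not tested.

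Stalk cultured with Wnt1 was also set against uncultured stalk, with the same stalk arrays as before. Here 4 members rose and 8 fell, or 7.14% and 14.3% of them, where 9.33% of all genes rose and 6.88% fell. The median of members was 0.15 and that of all genes 0.35. Without Wnt1 culture replicate 2 these were 0.41 and 0.38, and without replicate 1 they were 0.031 and 0.24. Without stalk replicate 1 they were 0.075 and 0.36, and without stalk replicate 2 0.31 and 0.32. With each array centred on its median 3 rose and 10 fell (5.89% and 7.92% of all genes), with the floor 1 and 3 (0.54% and 1.51%), and after quantile normalization 1 and 2 (1.93% and 2.36%). The arrays did not overlap in 19 members that were higher with Wnt1 than in stalk (41.5% of all genes) and 18 that were lower (25.5%), together 66.1% of members and 66.9% of all genes. Without either stalk array, either tip array or Wnt1 culture replicate 1 fewer members passed, and fewer of all genes did. Without Wnt1 culture replicate 2 or either control culture array more of both passed. Each of these refits leaves 1 array in a group.

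The Eph family again gave the lowest p-values. Epha7 was at 180 and 281 with Wnt1, under the floor, against 2687 and 3179 in stalk (-3.46 ± 0.36, adjusted p = 0.00069), and the call held with each of the 8 arrays left out (-3.72 to -3.19). It was lost with the mean of its probe sets, at -1.04. The 3 other probe sets of Epha7 were at -0.93 to 0.36. The one at -0.93 was above the floor on all 8 arrays. Epha3 was at 562 and 151 (-2.96 ± 0.46, adjusted p = 0.0041), with its second probe set at -2.25, and lost its call only without stalk replicate 2 (-3.78 to -2.15 over the arrays left out). The remaining probe set of Epha3 that passed the filter was at 0.30, under the floor on every array. Efna3 was at 794 and 749 (1.88 ± 0.39, adjusted p = 0.013), its other probe set at 1.56, and lost its call without either stalk array (1.80 and 1.96). Epha2 was at 1378 and 544 (1.76 ± 0.47, adjusted p = 0.029). Epha4, at 468 and 157, missed the threshold (-1.78 ± 0.64, adjusted p = 0.068).

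Of 13 membrane-bound semaphorins 2 were called higher and 2 lower in this comparison (15.4% each). Of 8 plexins 0 were called higher and 2 lower (25%), beside 9.33% and 6.88% of all genes. Differences were positive in 8 of the 13 and in 5 of the 8, and negative in 39.8% of all genes. Sema6d was at 503 and 26.7 (-2.87 ± 0.75, adjusted p = 0.027), but its 3 other probe sets were at 1.07 to 1.44 and the mean over probe sets at 0.26. Sema4c, a ligand of plexin B2, fell from 983 and 1332 in stalk to 149 and 408 (-2.01 ± 0.57, adjusted p = 0.036), whereas in control culture its arrays, at 349 and 1449, spanned the stalk values. Plxnd1 was at 266 and 302 (-2.02 ± 0.59, adjusted p = 0.039). Plxnc1, the receptor of Sema7a, fell from 516 and 831 to 250 and 193 (-1.41 ± 0.40, adjusted p = 0.036), with other probe sets between -2.30 and 0.38. On the higher side stood Sema6c, at 713 and 345 (1.95 ± 0.50, adjusted p = 0.026), and Sema5b, at 373 and 180 (1.80 ± 0.56, adjusted p = 0.048). The call of Sema5b was lost in 14 of 23 alternatives, among them the removal of any tip or stalk array or of Wnt1 culture replicate 1 (1.35 to 2.25).

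Robo1 was at 444 and 296 with Wnt1 (-1.85 ± 0.43, adjusted p = 0.020), although its other probe sets, at 0.95 and 1.03, had the opposite sign. Slit2, a secreted ligand of Robo receptors, fell from 510 and 546 in stalk to 71.3 and 230 (-1.68 ± 0.52, adjusted p = 0.046). That call was lost in 14 of 23 alternatives, among them the removal of any tip or stalk array or of Wnt1 culture replicate 1 (-2.31 to -1.06). The second probe set of Slit2 was at 1.45. Without any single tip or stalk array or Wnt1 culture replicate 1 the calls of Plxnc1 (-1.73 to -1.09), Sema4c (-2.62 to -1.39) and Epha2 (1.13 to 2.40) were lost as well. For Plxnd1, leaving out any tip, stalk or Wnt1 culture array had that effect (-2.19 to -1.84). The call of Sema6c was lost without tip replicate 2, either stalk array or Wnt1 culture replicate 1 (1.47 to 2.43). That of Sema6d was lost without either stalk array or Wnt1 culture replicate 2 (-4.34 to -1.40), and that of Robo1 without either stalk array (-2.11 to -1.59). Marker lists moved in this comparison too. Endothelial markers fell in 8 of 13 and those of lung mesenchyme in 6 of 10, with a summed signal of 7484 to 8952 for the latter, while smooth muscle markers rose in 7 of 10. Macrophage markers rose in 4 of 10, those of neurons and neural crest rose in 4 of 10 and fell in 1, and epithelial markers rose in 2 of 10 and mesothelial ones in 2 of 9. Krt19 is on both of the last 2 lists and is 1 of the genes called in each (2.28). Over all genes 9.33% rose and 6.88% fell, and many of these markers lay under the floor in stalk, as given above. Their part in these values was not tested.

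Wnt1 was compared with control medium to ask how cultured stalk responds to it, and this test also bears on any difference between the 2 culture results above. No member passed, with 0 of 56 higher and 0 lower, as for 0% of all genes in each direction (limma, smallest adjusted p among members 0.55). At an unadjusted p under 0.05 there were 7 members, or 12.5%, against 8.05% of all genes. Of the 56 members 43 (76.8%) had a negative difference, as had 55.5% of all genes, with a median of -0.30 where that of all genes was -0.08. Without Wnt1 culture replicate 2, the dimmest culture array, the medians were -0.099 and 0.056, and without replicate 1 they were -0.62 and -0.21. Without control culture replicate 1 they were -0.52 and -0.07. With each array centred on its median these were -0.17 and 0.05. The arrays of the 2 media did not overlap in 15 members, each lower with Wnt1, which is 26.8% against 15.9% of all genes lower without overlap. None was higher without overlap, against 10.1% of all genes. Markers of other cell types differed between the media as well, none past the threshold. Endothelial markers were negative in 10 of 13 and lower without overlap in 5, and macrophage markers were negative in 6 of 10 and lower without overlap in 4. Of 10 markers each, those of lung mesenchyme and those of neurons and neural crest were negative in 7, epithelial ones in 6 and smooth muscle ones in 2, and mesothelial ones were negative in 6 of 9. Their part in the values of the members was not tested.

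Among members without overlap and with a group mean above the floor, the largest differences were those of Slit2, Sema4d, Epha7 and Ephb4, none past the threshold. Slit2 was at 71.3 and 230 with Wnt1 and at 353 and 473 without (-1.35 ± 0.52, adjusted p = 0.56). Sema4d was at 259 and 256 against 840 and 461 (-1.15 ± 0.47, adjusted p = 0.57), both values with Wnt1 being under the floor. Against stalk Sema4d rose in control culture and was at 0.44 (adjusted p = 0.51) with Wnt1, but the difference between the media itself did not pass. Epha7 was at 180 and 281 against 423 and 622 (-1.05 ± 0.36, adjusted p = 0.55), a value of 0.030 with the mean of its probe sets. Ephb4, the receptor of Efnb2 on veins, was at 259 and 94.8 against 261 and 507 (-0.999 ± 0.53, adjusted p = 0.66). The arrays numbered 1 of Ephb4 were nearly equal, and its groups did not overlap only by that small gap.

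By family, negative differences with Wnt1 were found in 11 of 13 membrane-bound semaphorins, 5 of 6 secreted ones, both neuropilins and 6 of 8 plexins. They were found in 3 of 5 ephrin-A and 2 of 3 ephrin-B ligands, 4 of 7 EphA and 3 of 4 EphB receptors, 2 of 3 Slits, 3 of 3 Robo genes and both netrins. None was called, and the share over all genes is the 55.5% given above. Without both culture arrays numbered 1, 1 array is left for each medium, and the spread then comes from tip and stalk alone. Array quality weights, lower for arrays that vary more, were 2.34 in tip, 2.32 in stalk, 0.48 in control culture and 0.38 with Wnt1. The culture arrays thus do not vary like the other groups, and calls of that fit are not used. Its median difference was -0.66 for members and -0.21 for all genes.

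Tip and stalk were compared without culture to ask how the mesenchyme around the growing ends differs from that behind it. No member passed here either, with 0 of 56 in each direction and 0% of all genes. None had an unadjusted p under 0.05 (limma), where 0.565% of all genes had. The fit shares its spread with the culture arrays, which vary more (weights 0.48 and 0.38, beside 2.34 in tip and 2.32 in stalk). These p-values may therefore be too large for tip and stalk. With array quality weights, or with tip and stalk alone in the fit, 0 members passed too. None of these counts shows that tip and stalk are alike. Within these limits 40 of the 56 (71.4%) had a negative difference, as had 48.7% of all genes, and 16 a positive one. The median was -0.14 against 0.01 for all genes. The arrays did not overlap in 20 members that were lower in tip and 7 that were higher. These are 35.7% and 12.5% of members, beside 16.2% and 18.2% of all genes. Together 48.2% of members and 34.4% of all genes did not overlap, and with each array centred on its median the medians were -0.10 and 0.05.

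**Figure D3:**
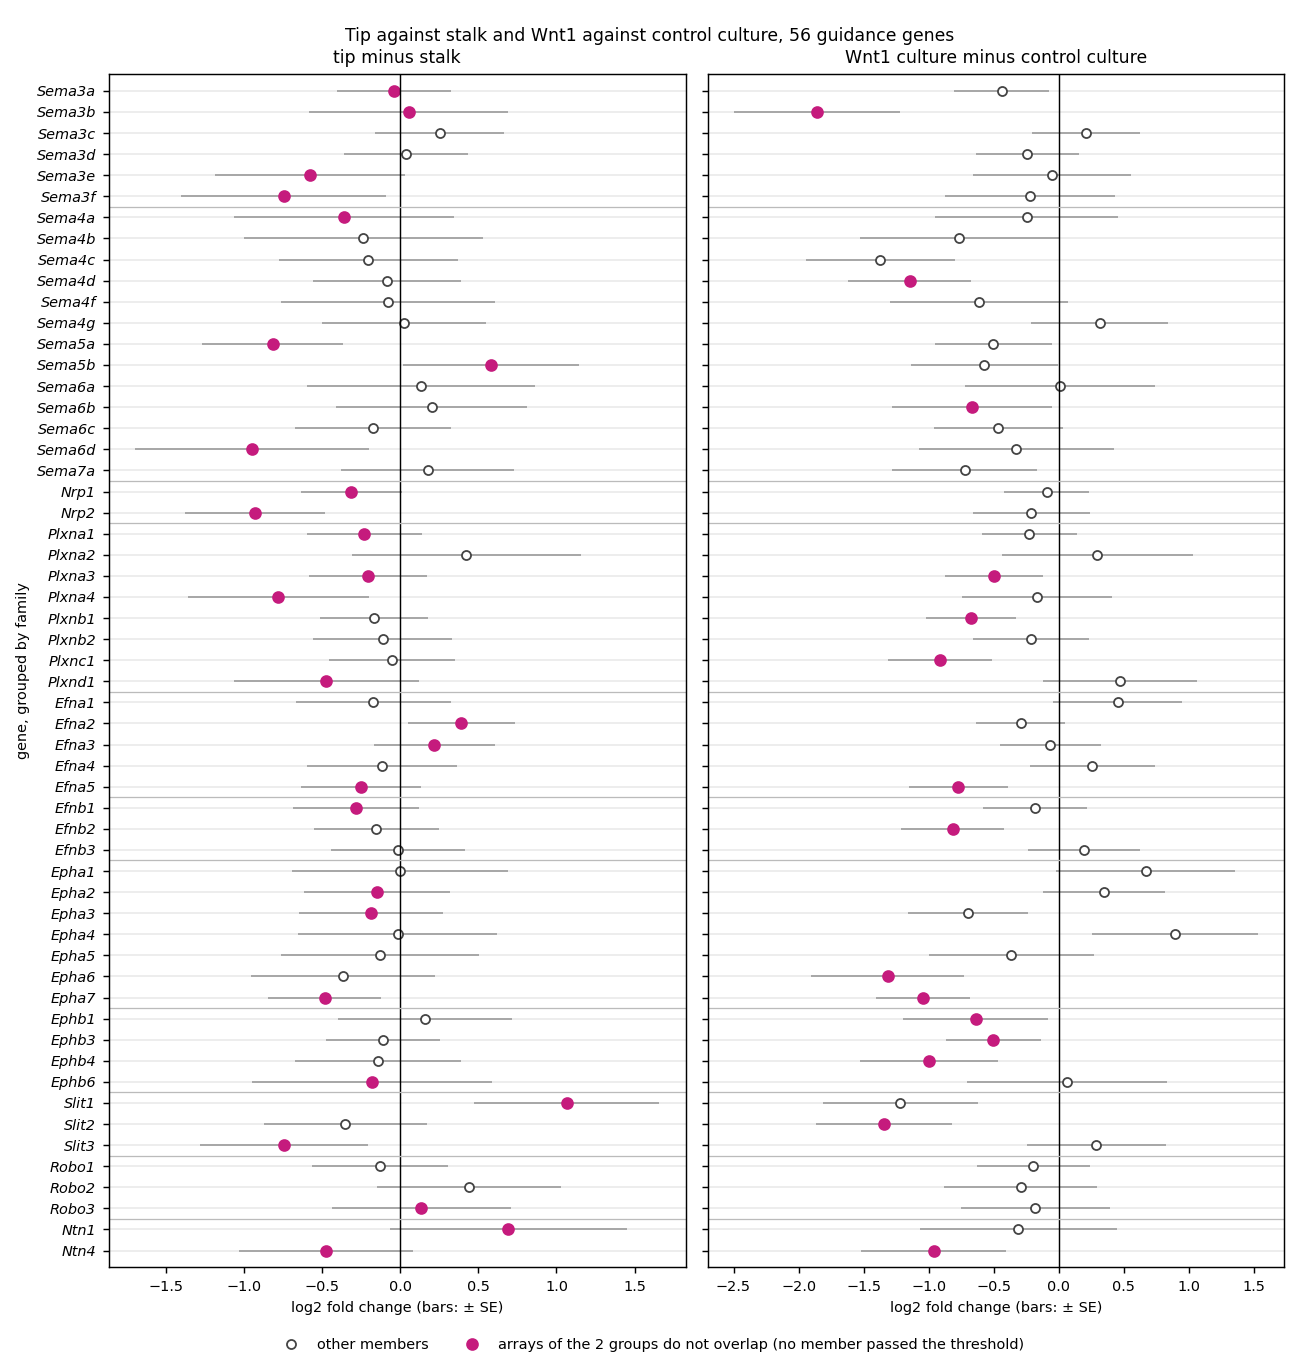
Log2 fold change (horizontal axis, bars ± SE from the limma fit) of the 56 tested guidance genes for tip minus stalk (left) and Wnt1 culture minus control culture (right); filled points mark genes whose arrays do not overlap between the groups. No gene passed the threshold in either panel, and 20 of the 27 filled points on the left and all 15 on the right lie below 0.

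By the same rule the 4 largest differences between tip and stalk were all negative in tip, none past the threshold. Sema6d was at 584 and 847 in tip and at 1159 and 1684 in stalk (-0.95 ± 0.75, SE). Its other probe sets had differences of -0.50 to 0.31, and the mean over probe sets was -0.28. Nrp2, the neuropilin of lymphatic and venous endothelium, was at 148 and 222 in tip and at 408 and 365 in stalk (-0.93 ± 0.45). Its next 2 probe sets had differences of -0.77 and -0.68, and the dimmest one 0.62. Sema5a was at 252 and 254 against 488 and 469 (-0.82 ± 0.45), with replicates close together in each group. The other probe sets of Sema5a were at -0.42 and 0.29, and the mean over probe sets at -0.32. Sema3f, a ligand of Nrp2, was at 413 and 247 against 416 and 770 (-0.75 ± 0.65), and at 0.63 once _x_at and _s_at probe sets were left out. All 4 had an adjusted p near 1, from the spread shared with the culture arrays.

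Both neuropilins and 7 of 8 plexins had negative differences in tip, Nrp1 being at 1847 and 1960 against 2464 and 2285 in stalk (-0.31 ± 0.32). All 7 EphA receptors were negative as well, by 0.48 or less, with Epha7 at 2361 and 1835 in tip. Of these 7, 4 exceeded the floor on no tip or stalk array, and the differences of Epha1 (-0.0022) and Epha4 (-0.017) were negligible. The share of negative differences over all genes is the 48.7% given above. The members higher without overlap included Slit1 (1.06 ± 0.59), at 197 and 156 in tip against 50.7 and 71.5 in stalk, and Ntn1, at 180 and 199.7 against 113 and 89.0 (0.69 ± 0.76), both under the floor in both groups. Efna2 was at 1857 and 1492 against 1165 and 1357 (0.39 ± 0.34), above the floor on every array. Endothelial markers had negative differences in 13 of 13, with a median of -0.49 and a summed signal of 8270 to 11778 in tip. The macrophage list was negative in 10 of 10, with 2379 to 5745 in tip and 5365 to 5861 in stalk. Mesothelial markers were positive in 8 of 9, with 7521 to 12084 in tip and 6136 to 6163 in stalk. Smooth muscle markers were negative in 9 of 10, with 4964 to 10584 in tip and 9816 to 13086 in stalk. The part of these cells in the neuropilin and semaphorin values was not tested.

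Related genes outside the member families were read from lists of further guidance receptors and of signalling partners inside the cell. Of 14 tested receptors and cues, 3 (21.4%) rose and 0 fell in control culture against stalk, beside 17.1% and 9.26% of all genes. Dscam, a netrin-binding adhesion molecule, went from 19.4 and 10.6 to 796 and 462 (3.46). Mean signals of Rgmb went from 95.5 to 604 (2.20) and Rgma, a ligand of neogenin, from 81.9 to 442 (1.93). In the Wnt1 culture 2 rose (Dscam and Rgmb) and 2 fell against stalk, 14.3% each beside 9.33% and 6.88% of all genes, the latter being the netrin receptor Unc5c, from 2997 to 908 (-1.69), and Flrt2, from 3934 to 1511 (-1.35). Of 29 signalling partners, 5 (17.2%) rose and 6 (20.7%) fell in control culture. Rasa1, a Ras inhibitor that acts downstream of EphB receptors, fell from 2052 to 494 (-1.96), and the kinase Fyn, used by plexin and Eph receptors, from 1069 to 349 (-1.50). Mical2, of the family that oxidises actin after semaphorin signals, rose from 26.9, also under the floor, to 426 (2.75). In Wnt1 culture 3 of the partners rose and 3 fell (10.3% each), Rasa1 at -1.68, Srgap2 (a Robo partner) at 2.23 and Rras at 1.52 having the lowest p-values. No gene of either list passed in the other comparisons.

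Epha8, Plxnb3 and Sema3g did not pass the filter on low signal and were not tested. Epha8 lay between 13.3 and 108 and Sema3g between 12.3 and 179 over the 8 arrays. Plxnb3 had 2 probe sets, which exceeded the floor once, at 506 on Wnt1 culture replicate 1.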

How the data were processed

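Signals of 8 arrays in 4 groups of 2 were analysed. The deposited values are MAS5 intensities, 1 per probe set and array, and the submitters' processing notes name Affymetrix Expression Console beside MAS5 without a version or settings. Of 45101 probe sets 64 controls were left out, and 34945 with 1 gene symbol in the platform annotation were kept (932 have several, 9160 none). All 59 members matched RefSeq by gene identifier. Probe sets above 96.4 (the 40th percentile) on at least 2 arrays were kept, each gene by its brightest one, and log2(value + 44.4), the 25th percentile being the pseudocount, was fitted for all 8 arrays with limma 3.58.1 in R 4.3.3 (lmFit, eBayes with intensity trend, two-sided, Benjamini-Hochberg over 16115 genes, threshold 0.05). Fold changes on this scale understate dim genes. With 2 arrays a group, precision is limited by their number. The test was tried on simulated data first. Members, lists and tests were chosen with earlier results of these data known. Values of every member past the threshold are given (at most 10 per direction and comparison). Where under 4 passed, the 4 largest changes without overlap and above the floor are given, and from each other list at most 3 genes. Nrp1, Nrp2, Sema3a, Efnb2, Slit1, Ntn1, Efna2, Efna5 and Plxnb1, where no test called them, were named after their values were seen. Alternatives changed the pseudocount, filter, floor, scaling, probe sets, variance model, weights, threshold, replicate block and arrays used. Figures used matplotlib 3.10.9.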

Additional observations from a re-analysis of the deposited data

How the results depend on the processing

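For tip against stalk the counts of called members were 0 under all 23 alternatives. For Wnt1 against control culture they were 0 as well, leaving aside the fit without both culture arrays numbered 1. For control culture against stalk, 8 higher and 7 lower, leaving out 1 array gave 0 to 14 higher and 0 to 9 lower. The floor gave 2 and 3, quantile normalization 2 and 4, centring 5 higher, the mean of probe sets 3 lower, a threshold of 0.10 14 higher, and the fit without both culture arrays numbered 1 16 higher. For Wnt1 culture against stalk, 4 higher and 8 lower, leaving out 1 array gave 0 to 10 and 1 to 12. The floor gave 1 and 3, quantile normalization 1 and 2, a threshold of 0.10 14 lower, and both the mean of probe sets and eBayes without the trend 4 lower. Without both culture arrays numbered 1 there were 13 lower. The replicate block gave 11 higher and 7 lower for control culture against stalk (21.8% and 11.8% of all genes). For Wnt1 culture against stalk it gave 4 and 10 (14.9% and 9.67%), and elsewhere 0. Deviations of same-numbered arrays correlated at 0.14 to 0.30 among the stalk and culture groups and at -0.08 to 0.05 with tip. With 2 numbers a group this does not settle whether they mark pairs, and the labels do not say. Over 35 values of named members and 804 refits, 625 kept direction and side of the threshold, 174 lost the call and 5 changed sign: with the mean of probe sets Sema6d (0.34 in control and 0.26 in Wnt1 culture against stalk), Robo1 (0.041, Wnt1 culture against stalk) and Epha7 (0.030, Wnt1 against control), and without _x_at and _s_at probe sets Sema3f (0.63, tip against stalk). In the first 4, dim probe sets enter the mean by construction. For Epha7 a probe set above the floor on all 8 arrays enters it too, at 0.11 for Wnt1 against control. The cause of other losses was not tested. The named values of tip against stalk and of Wnt1 against control culture were never called. For them, keeping the side of the threshold only means staying uncalled, and all 174 lost calls come from the called values. Signals under 299 may be background, which limits the members that rose.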
